A study of Mus musculus with 10 samples.

Results

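The genes described here encode the machinery that presents peptides on MHC class II molecules, measured in the liver of mice infected with an adenovirus that carried dominant negative cJun or a control cargo. They are 7 genes, chosen with earlier results of these data known. Among them are the class II chains H2-Aa, H2-Ab1 and H2-Eb1. The others are the invariant chain Cd74, the peptide loading chain H2-DMa, the invariant chain protease Ctss and the transactivator Ciita. Every probe set of the array annotated to 1 of these symbols and to no other gene was taken, which gave 15 probe sets of 45037, and 7 of 18193 genes. Of these, 13 probe sets lay above the filter on dim signals, and each of the 7 genes kept at least 1.

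Liver RNA of 10 mice, all labelled ApoE-/- and all infected with an adenovirus, was hybridised to Affymetrix 430 2.0 arrays, 1 mouse per array. In 5 mice the virus expressed dominant negative cJun (dn-cJun, arrays 16 to 20), and in 5 it expressed the fluorescent protein GFP (control, arrays 11 to 15). cJun dimerises with other proteins to form the AP-1 transcription factor, and the study's title refers to lipid homeostasis. Strain, age, sex, viral dose and time after infection are not given in the labels, and no uninfected mice were part of the comparison. MHC alleles differ between mouse strains, and whether the probes match those of these mice was not tested.

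Some features of the arrays bear on the groups. Apoe, the gene labelled as lost in these mice, had a log2 signal of 15.31 to 15.82 on the arrays labelled dn-cJun and 9.42 to 10.94 on the controls. A signal of this height contradicts an ApoE-/- genotype as labelled, so the 5 arrays are called "labelled dn-cJun", and whether the probes match RNA still made from the mutant gene was not tested. The Apoe difference of 5.41 on the log2 scale (SE 0.22, limma adjusted p = 2.35e-08) coincides with the groups. Each difference between arrays labelled dn-cJun and controls given here, the calls of Cd83, Lyz2 and Cd5l included, therefore cannot be told apart from a difference in Apoe genotype. Jun, which encodes cJun, was at 9.84 to 10.82 on the arrays labelled dn-cJun and at 10.18 to 10.73 on the controls. Controls 14 and 15 stood apart in sex-linked transcripts. Xist ranged from 5.96 to 6.63 on the arrays labelled dn-cJun, against 13.71 on control 14, 13.63 on control 15 and 5.90 to 6.72 on the other 3 controls. The Y-linked gene Eif2s3y was at 10.58 to 11.13 on the arrays labelled dn-cJun. It was at 5.22 on control 14, 4.08 on control 15 and 10.99 to 11.06 on the other 3 controls. By these transcripts controls 14 and 15 read as female and the other arrays as male, so sex was not balanced between the groups. The part of sex in the differences was not tested. Some fold changes, the members' median and some counts are therefore also given without these 2 controls. Correlations, medians of the other gene lists and the class II mean are given only for all 10 arrays. Extraction of control 11 is labelled Trizol, and that of the other 9 arrays names only the array maker. Hepatocyte markers such as Alb (15.66 to 15.85 on the arrays labelled dn-cJun, 15.67 to 15.79 on the controls) were high on every array.

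MHC class II molecules display peptides from the endosomes of antigen presenting cells to CD4 T cells. The alpha and beta chains assemble on the invariant chain Cd74, whose remnant in the groove is freed after cleavage by cathepsin S (Ctss) and exchanged for peptide with the help of H2-DM. Ciita is a coactivator that binds the factors RFX and NF-Y on class II promoters, and interferon gamma induces it. In the liver, Kupffer cells, dendritic cells and B cells are among the cells that carry class II, while hepatocytes normally have little.

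Class II chain genes share promoter boxes, an X box bound by RFX and its partners and a Y box bound by NF-Y. Promoter windows from RefSeq (GRCm38.p6, 250 bases before to 50 after the gene's start) were matched for 4 of the 7 genes, H2-Aa, H2-Eb1, H2-DMa and Ctss. Sequences of 3 are shown because they hold the boxes of the chains and an interferon response element in the protease. Capitals mark matches, on either strand, to the Y box core GATTGG, the X1 box core AACNGATG, the X2 box TGACGTCA and the interferon response element GAAANNGAAA, letters chosen after the sequences were read. The windows are H2-Aa at chr17:34287774-34288073 (minus strand), H2-Eb1 at chr17:34305617-34305916 (plus strand) and Ctss at chr3:95526536-95526835 (plus strand), each given 5′ to 3′.
H2-Aa: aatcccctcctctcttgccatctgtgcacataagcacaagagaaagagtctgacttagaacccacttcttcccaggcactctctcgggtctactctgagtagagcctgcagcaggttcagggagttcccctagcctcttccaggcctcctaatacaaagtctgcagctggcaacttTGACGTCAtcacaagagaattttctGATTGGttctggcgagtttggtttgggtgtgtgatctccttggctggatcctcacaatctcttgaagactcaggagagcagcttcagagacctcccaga
H2-Eb1: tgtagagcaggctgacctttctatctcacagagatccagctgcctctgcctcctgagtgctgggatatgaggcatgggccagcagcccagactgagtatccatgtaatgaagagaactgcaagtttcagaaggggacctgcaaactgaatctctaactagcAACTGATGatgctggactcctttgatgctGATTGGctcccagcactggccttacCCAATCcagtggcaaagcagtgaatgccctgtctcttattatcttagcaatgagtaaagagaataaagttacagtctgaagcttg
Ctss: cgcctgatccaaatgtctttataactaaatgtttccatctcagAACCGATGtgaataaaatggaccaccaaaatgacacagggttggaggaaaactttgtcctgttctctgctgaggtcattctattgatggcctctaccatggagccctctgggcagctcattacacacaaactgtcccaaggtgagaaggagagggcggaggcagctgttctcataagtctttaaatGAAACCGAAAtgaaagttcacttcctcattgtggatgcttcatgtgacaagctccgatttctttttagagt

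Of 32851 promoter windows of the same length, 16.1% held a match to the Y box core, 2.32% to the X1 box core, 1.79% to the X2 box and 3.44% to the interferon response element. H2-Aa had the X2 box at -74 and the Y box core at -49 from the start, and H2-Eb1 had the X1 box core at -89 and the Y box core at -60 and, on the other strand, at -35. Ctss had the interferon response element at -21 and a match to the X1 box core at -207, with no match to the Y box core. H2-DMa has 2 windows, of which 1 held a Y box core, at -199. Among the other class II genes, 5 of 5 with a window (H2-Eb2, H2-DMb1, H2-DMb2, H2-Oa and H2-Ob) held the Y box core and 3 the X1 box core. A match is a run of letters and not a measured binding site. H2-Ab1, H2-Aa and H2-Eb1 are consecutive protein-coding genes on chromosome 17 in that assembly, with 0 such genes between them.

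Class II presentation genes did not pass the test in either direction in the arrays labelled dn-cJun. All values below are log2(intensity + 16) after quantile normalization, and differences are arrays labelled dn-cJun minus control. Of 13 probe sets tested, 12 had a mean below that of the controls and 1 above, where 50.8% of all probe sets tested were below. Their median log2 fold change was -0.23, against -0.0042 over all 27022 probe sets tested. The 13 probe sets come from 7 genes, some with several probe sets, and are not independent readings. None of the 13 reached an adjusted p under 0.05 (limma, two-sided, Benjamini-Hochberg over all probe sets tested, lowest 0.294), where 0.692% of all probe sets did. At an unadjusted p under 0.05 the count was 1 of 13, which was lower, against 13.3% of all probe sets in either direction and 6.74% lower. The 2 groups overlapped in each of the 13, while 3.63% of all probe sets had groups that did not overlap. Without controls 14 and 15 the median was -0.03, and 8 of the 12 probe sets then above the filter were below 0.

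**Figure D1:**
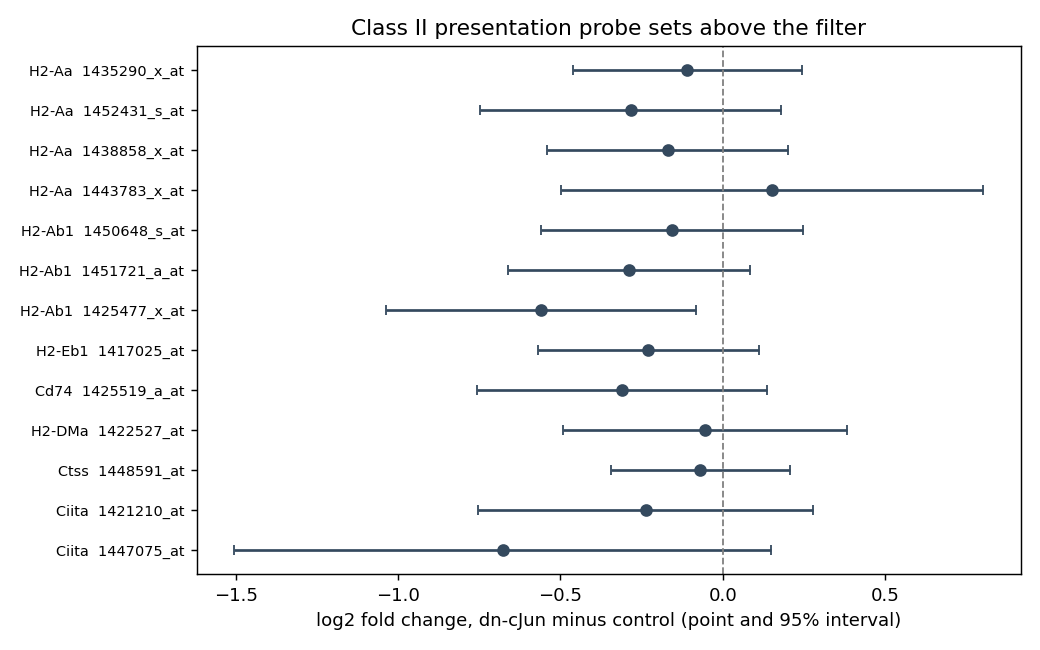
Log2 fold change (arrays labelled dn-cJun minus control) of the 13 class II presentation probe sets above the filter, with 95% intervals from the limma fit (n = 5 arrays per group). All but 1 of the points lie below 0, and 12 of the intervals include 0.

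H2-Aa encodes the alpha chain of the class II molecule I-A. Its highest probe set, 1435290_x_at, read 10.97, 11.29, 11.03, 11.75 and 11.69 on arrays 16 to 20 labelled dn-cJun, against 11.60, 11.12, 11.22, 11.65 and 11.68 on controls 11 to 15. Arrays 19 and 20 labelled dn-cJun were as high as controls 11, 14 and 15, and the other 3 lay near controls 12 and 13, so the groups overlapped across nearly their whole range. This gave a log2 fold change of -0.11 (SE 0.16, 95% interval -0.46 to 0.24, limma adjusted p = 0.832).

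The other H2-Aa probe sets gave fold changes of both signs. Probe set 1452431_s_at averaged 9.62 ± 0.42 on the arrays labelled dn-cJun and 9.90 ± 0.42 on the controls (SD, n = 5 each), a log2 difference of -0.28. For 1438858_x_at the difference was -0.17. The dim probe set 1443783_x_at, with 1 array of each group below the filter level of 6.06, was the member with a mean above the controls, at 0.15 (SE 0.30). Names that end in _x_at or _s_at mark probes that can also match related transcripts, as may happen in this multigene family. Each H2-Aa probe set has such a name, so the alternative without them did not test this gene. The class II mean and correlations below use 1435290_x_at and, for H2-Ab1, 1450648_s_at.

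H2-Ab1 encodes the beta chain that pairs with H2-Aa. Probe set 1450648_s_at read 9.87, 9.95, 10.03, 10.29 and 10.20 on the arrays labelled dn-cJun, against 10.69, 9.48, 10.05, 10.36 and 10.55 on the controls. The 5 arrays labelled dn-cJun lay within the range of the controls, with an SD of 0.18 against 0.48 in the controls. Their log2 fold change was -0.16 (SE 0.19, limma adjusted p = 0.782), which was -0.0028 without controls 14 and 15.

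Probe set 1425477_x_at of H2-Ab1 had the lowest adjusted p of the members. It read 8.03, 8.26, 7.999, 9.17 and 8.08 on the arrays labelled dn-cJun, against 9.23, 8.67, 8.39, 9.02 and 9.03 on the controls. The 4 arrays 16, 17, 18 and 20 were below each control, and array 19 was above 4 of the 5. A log2 fold change of -0.56 resulted (SE 0.22, 95% interval -1.04 to -0.08), with a limma adjusted p of 0.294. It was -0.45 without controls 14 and 15 (limma adjusted p = 0.550) and -0.78 without array 19 labelled dn-cJun (limma adjusted p = 0.0857). The remaining H2-Ab1 probe set, 1451721_a_at, was at -0.29 (SE 0.17, limma adjusted p = 0.510). Leaving out controls 14 and 15 gave -0.15. With all arrays the 3 probe sets of this gene ranged from -0.56 to -0.16.

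H2-Eb1 encodes the beta chain of the I-E molecule. It read 10.03, 10.45, 10.34, 10.71 and 10.74 on the arrays labelled dn-cJun, against 10.66, 10.40, 10.40, 10.85 and 11.11 on the controls. Array 16 labelled dn-cJun was the lowest of the 10 and control 15 the highest, and arrays 19 and 20 lay above controls 11, 12 and 13. H2-Eb1 had a log2 fold change of -0.23 (SE 0.16, 95% interval -0.57 to 0.11, limma adjusted p = 0.578), which was -0.03 without controls 14 and 15.

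Cd74, the invariant chain that chaperones the class II dimers, read 10.63, 11.08, 10.82, 11.69 and 11.23 on the arrays labelled dn-cJun, against 11.60, 10.93, 10.99, 11.65 and 11.84 on the controls. Control 15, array 19 labelled dn-cJun and controls 14 and 11 were the highest arrays. Its mean was 11.09 ± 0.41 on the arrays labelled dn-cJun and 11.40 ± 0.42 on the controls (SD, n = 5 each). Cd74 had a log2 fold change of -0.31 (SE 0.21, 95% interval -0.76 to 0.14, limma adjusted p = 0.567), the smallest p of the 7 genes when each is represented by its highest probe set. Without controls 14 and 15 it was -0.08 (95% interval -0.55 to 0.39).

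H2-DMa encodes the alpha chain of the H2-DM dimer, which loads peptide. It read 8.66, 9.04, 8.84, 9.12 and 9.24 on the arrays labelled dn-cJun, against 9.31, 8.45, 8.58, 9.28 and 9.55 on the controls. The arrays labelled dn-cJun lay between controls 12 and 13, which were the lowest of the 10, and controls 14, 11 and 15, which were the highest. H2-DMa had a log2 fold change of -0.05 (SE 0.20, 95% interval -0.49 to 0.38, limma adjusted p = 0.939), and 0.20 without controls 14 and 15. Its other probe set, 1459872_x_at, was below the filter and ranged from 4.52 to 6.82 on the arrays labelled dn-cJun and from 4.71 to 6.66 on the controls.

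Ctss encodes cathepsin S, the protease that trims the invariant chain in antigen presenting cells. It read 12.69, 12.84, 12.74, 12.73 and 12.69 on the arrays labelled dn-cJun, against 13.13, 12.33, 12.61, 13.10 and 12.86 on the controls. The arrays labelled dn-cJun were tightly grouped (SD 0.06), while the controls (SD 0.34) spread to both sides of them, with control 12 lowest and control 11 highest. The log2 fold change was -0.07 (SE 0.13, 95% interval -0.35 to 0.21, limma adjusted p = 0.864). Whether the spread itself differed between the groups was not tested.

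Ciita, the transactivator of the class II genes, was dim on these arrays. Probe set 1421210_at read 6.66, 6.69, 6.80, 7.07 and 7.52 on the arrays labelled dn-cJun, against 7.58, 6.59, 6.96, 7.19 and 7.60 on the controls. Array 20 labelled dn-cJun was near controls 11 and 15, and control 12 was the lowest of the 10. That probe set had a log2 fold change of -0.24 (SE 0.24, 95% interval -0.75 to 0.28, limma adjusted p = 0.727), which was -0.09 without controls 14 and 15.

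Of the other Ciita probe sets, 1447075_at had the lowest fold change of the members tested, at -0.68, with a wide interval of -1.50 to 0.15 (limma adjusted p = 0.481). It lay below the filter level on 3 arrays labelled dn-cJun and 1 control. Probe set 1421211_a_at was below the filter and read 4.35, 5.34, 4.55, 5.15 and 4.50 on the arrays labelled dn-cJun, against 6.21, 5.03, 4.98, 6.17 and 7.17 on the controls. In it controls 11, 14 and 15 were the highest arrays and the other 2 controls lay within the range of the arrays labelled dn-cJun. When no filter was applied, its log2 fold change was -1.13 (SE 0.41, limma adjusted p = 0.330). Dim signals near the filter level are compressed by the added 16, and whether Ciita was detected on each array was not tested.

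**Figure D2:**
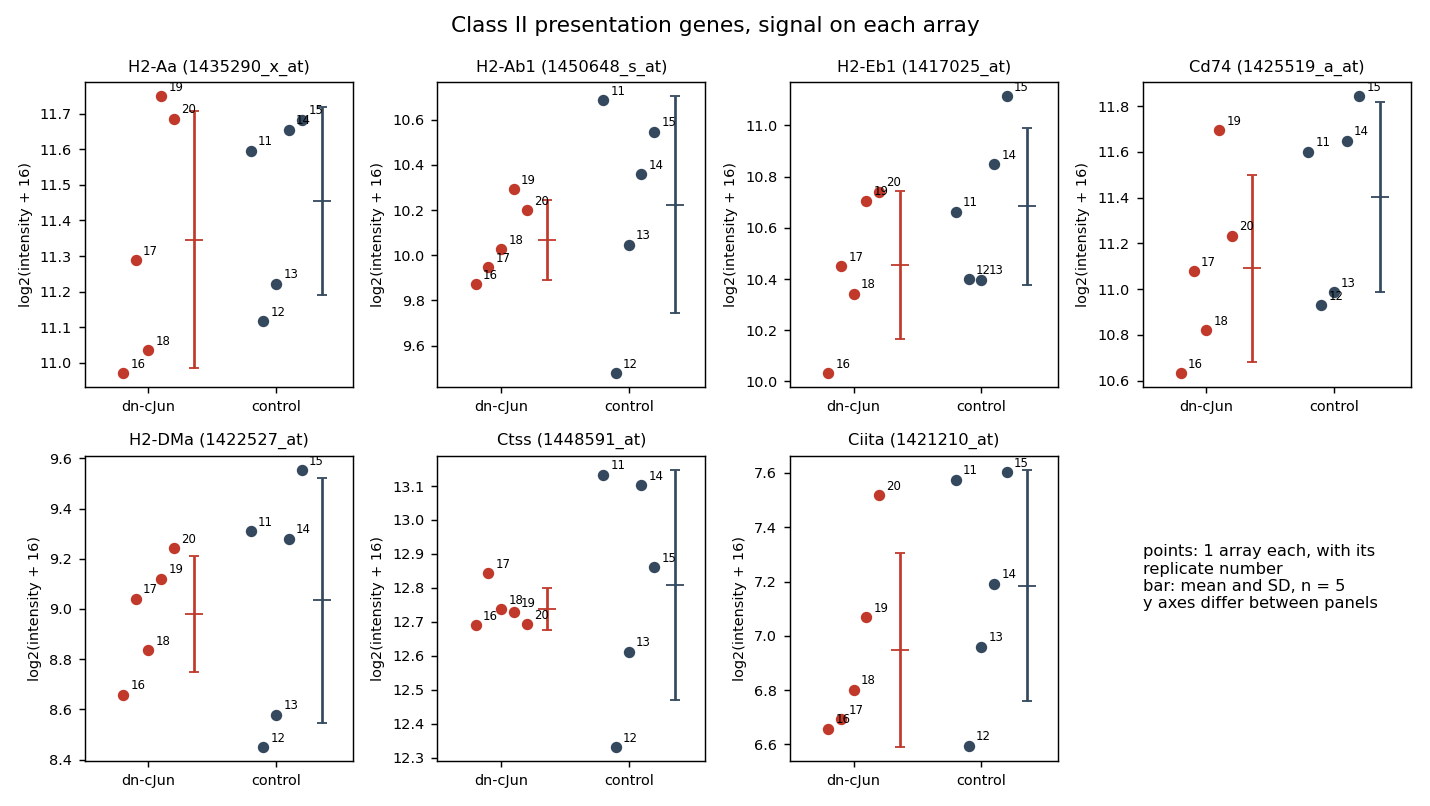
Signal (log2(intensity + 16), quantile normalized) of the highest probe set of each of the 7 genes on each array, labelled dn-cJun at left and control at right, with mean and SD (n = 5 per group) and the replicate number beside each point. Controls 12 and 13 are low and controls 11, 14 and 15 high in most panels, and the groups overlap in each.

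The class II genes varied together from mouse to mouse. Among the highest probe sets of H2-Aa, H2-Ab1, H2-Eb1, Cd74 and H2-DMa, Pearson's r over the 10 arrays was 0.71 to 0.93 for the 10 pairs, and 0.69 to 0.94 after each group's mean was subtracted. These values are descriptions, since the arrays share normalization and the probe sets come from the same RNA. Ciita (1421210_at) followed them, at 0.78 (Cd74) to 0.88 (H2-Ab1), and Ctss less closely, at 0.47 (H2-Eb1) to 0.83 (H2-Ab1).

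The mean of the 5 class II genes, each centred over the 10 arrays, was -0.44, -0.11, -0.26, 0.24 and 0.15 on arrays 16 to 20 labelled dn-cJun, against 0.30, -0.40, -0.23, 0.28 and 0.47 on controls 11 to 15. Both groups held low and high arrays. Array 16 labelled dn-cJun and control 12 were the lowest and control 15 the highest. Arrays labelled dn-cJun ranged from -0.44 to 0.24 and controls from -0.40 to 0.47. In whole liver, fewer cells that carry class II and less class II RNA per cell cannot be told apart.

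Genes with the most similar pattern were searched among 12729 other genes, each represented by its highest probe set. The 5 with the highest Pearson's r to the class II mean over the 10 arrays were Usp18 (r = 0.97), Irf1 (0.96), Gm4951 (0.96), Col4a1 (0.95) and Pml (0.94). Since they were picked for a high r, these values are descriptions. Usp18 removes the ubiquitin-like protein ISG15 from its targets, Irf1 is a transcription factor induced by interferon gamma, Pml organises nuclear bodies, and Col4a1 is a chain of basement membrane collagen. Usp18, Irf1 and Pml are known as interferon-induced genes.

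Irf1 read 11.56, 11.95, 11.84, 12.13 and 12.21 on the arrays labelled dn-cJun, against 12.11, 11.51, 11.78, 12.30 and 12.44 on the controls. Array 16 labelled dn-cJun and control 12 were the lowest and controls 15 and 14 the highest, an order close to that of the class II genes. Its log2 fold change was -0.09 (SE 0.17, limma adjusted p = 0.866). Usp18 was at -0.13, Gm4951 at -0.04, Col4a1 at -0.29 and Pml at -0.19, with limma adjusted p of 0.617 to 0.936.

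**Figure D3:**
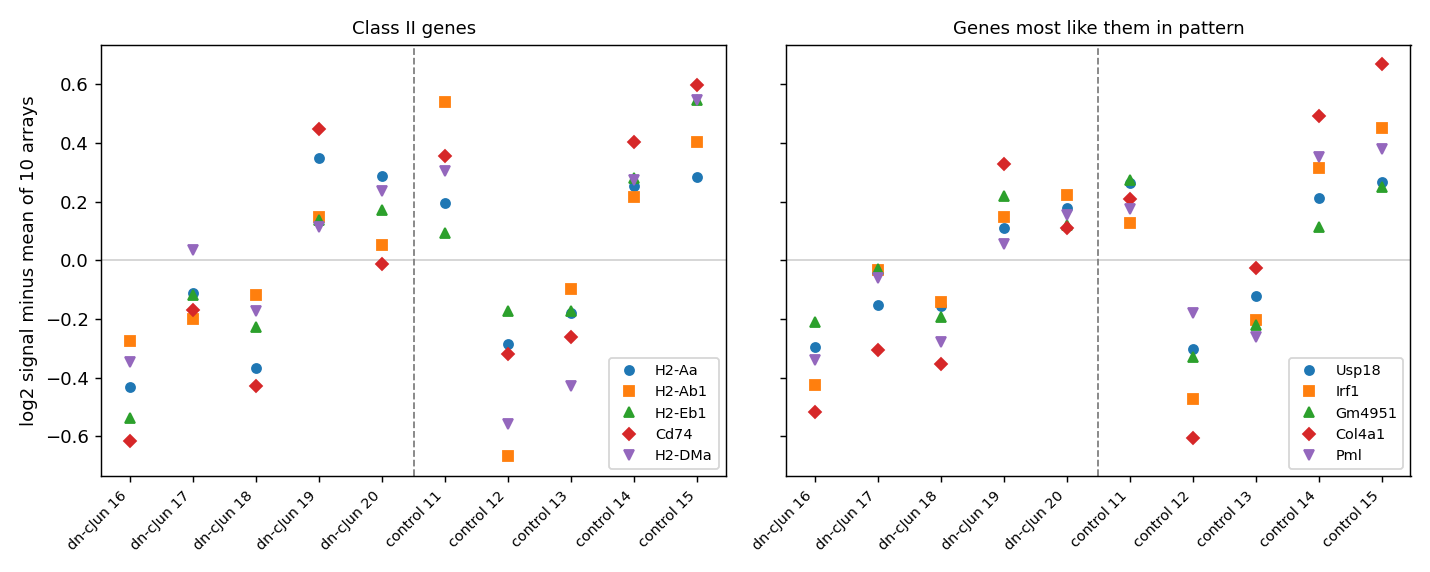
Log2 signal minus the mean of the 10 arrays, for 5 class II genes (left panel) and the 5 other genes with the highest correlation to their mean (right panel), with the arrays labelled dn-cJun left of the dashed line and the controls right of it. Array 16 labelled dn-cJun and control 12 are low and control 15 is high in both panels.

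Other parts of the pathway were read from lists, with 1 probe set per gene, for which 0.754% of 12736 genes passed the threshold in either direction. Of 6 other class II genes, 2 were tested and neither passed. H2-DMb2, the beta chain partner of H2-DMa, was at -0.32 (SE 0.32, limma adjusted p = 0.713), and H2-Ea, the alpha chain partner of H2-Eb1, was at 0.12. H2-Eb2, H2-Oa and H2-Ob lay below the filter, and H2-DMb1 has no probe set of its own symbol here.

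Endosomal processing genes did not pass in 13 of 13, with 8 above and 5 below 0 and a median of 0.03. Lamp1, a lysosomal membrane protein, had the smallest p, at 0.18 (SE 0.05, limma adjusted p = 0.130), with 13.86 to 13.97 on the arrays labelled dn-cJun and 13.70 to 13.77 on the controls. Ctsb, a lysosomal cysteine protease, was at -0.19 (SE 0.05, limma adjusted p = 0.151), with 14.23 to 14.32 on the arrays labelled dn-cJun and 14.37 to 14.56 on the controls. These were the 2 of the 13 genes whose groups did not overlap, Lamp1 higher and Ctsb lower, against 4.22% of all genes. Lgmn was at -0.31 and Ifi30, a reductase that unfolds antigens, at -0.26.

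The factors that bind class II promoters did not pass in 7 of 7 (median -0.18). Rfx5, a DNA-binding subunit of RFX, was at -0.27 (SE 0.14, limma adjusted p = 0.430), and Nfyb, a subunit of NF-Y, was the gene with the smallest p, at -0.18 (SE 0.09, limma adjusted p = 0.388). Creb1 was at 0.08.

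Interferon gamma signalling, which induces Ciita, had 13 genes tested and none called, with 5 above and 8 below 0 and a median of -0.08. Jak2, a receptor-associated kinase of the pathway, had the smallest p, at -0.23 (SE 0.10, limma adjusted p = 0.374). The interferon-induced GTPase Gbp2 was at 0.02 (SE 0.39) and ranged from 11.62 to 12.64 on the arrays labelled dn-cJun and from 10.66 to 13.19 on the controls, so it varied more within the controls than between the groups. The mean centred signal of the 13 genes lay between -0.29 and 0.19 for the arrays labelled dn-cJun, while the controls held both the lowest array (control 12, -0.63) and the highest (control 15, 0.52).

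MHC class I presentation had 12 genes tested, none called, and a median of 0.05. H2-K1, a class I heavy chain, had the smallest p, at 0.06 (SE 0.05, limma adjusted p = 0.691), and B2m, the light chain, was at 0.05. Tap1, Tap2, Psmb8 and Psmb9, which supply peptide to class I, lay between -0.0050 and 0.08.

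Costimulatory genes held the 1 gene of these pathways that passed, Cd83, which marks mature dendritic cells and prolongs surface class II by opposing its ubiquitination. Cd83 read 6.99, 6.68, 6.63, 7.01 and 6.03 on the arrays labelled dn-cJun, against 8.16, 7.55, 7.47, 8.33 and 8.11 on the controls. Each array labelled dn-cJun was below each control. Signals on the arrays labelled dn-cJun were dim (mean 6.67), and array 20 lay below the filter level of 6.06. Cd83 fell by 1.26 on the log2 scale (SE 0.23, limma adjusted p = 0.0306). It was at -1.04 when controls 14 and 15 were left out (limma adjusted p = 0.138). With any 1 of arrays 17, 18, 19 and 20 labelled dn-cJun or of controls 11, 14 and 15 left out it did not pass (limma adjusted p = 0.0540 to 0.0789), at -1.35 to -1.11. Cd86 was at -0.48 and Cd40 at -0.47, with limma adjusted p of 0.312 and 0.278. Over the 6 genes tested, 5 lay below 0, with a median of -0.36.

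Markers of the cells that carry class II were read next to these genes, and 2 of them passed, both of macrophages. Kupffer cell and macrophage markers had 16 of 17 tested, 7 above and 9 below 0, and a median of -0.12. The lysozyme gene Lyz2 differed by -0.70 on the log2 scale (SE 0.13, limma adjusted p = 0.0295). Cd5l, which macrophages secrete, differed by -0.57 (SE 0.11, limma adjusted p = 0.0306). Without controls 14 and 15, Lyz2 was at -0.65 (limma adjusted p = 0.0417) and Cd5l at -0.49 (limma adjusted p = 0.119). Lyz2 did not pass with any 1 of arrays 17, 18, 19 and 20 labelled dn-cJun or of controls 11, 13 and 14 left out (limma adjusted p = 0.0546 to 0.0750, fold changes -0.70 to -0.59). Cd5l passed with control 12 left out and with no other single array left out (limma adjusted p = 0.0528 to 0.0857 for the other 9, fold changes -0.60 to -0.52). Clec4f, which marks Kupffer cells, was at -0.15 (SE 0.22), and Adgre1, a surface receptor of macrophages, at -0.11 (SE 0.11). Of the 7 markers above 0, Mrc1 was the lowest at 0.0084 (SE 0.12) and Cd163 the highest at 0.45 (SE 0.39). The summed linear signal of the 17 genes, Lyz2 and Cd5l included, was 31386 to 37701 on the arrays labelled dn-cJun and 31841 to 49588 on the controls.

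Dendritic cell markers had 5 of 10 with a probe set above the filter, and Xcr1, Cd209a, Ccr7, Siglech and Irf4 lay below it. No tested marker passed, and the list's median was -0.08. Flt3, a growth factor receptor of dendritic cell precursors, had the smallest p, at 0.49 (SE 0.38, limma adjusted p = 0.641), and Itgax, which encodes CD11c, was at -0.08 (SE 0.25). The summed signal was 729.0 to 1239 on the arrays labelled dn-cJun and 721.8 to 1030 on the controls.

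B cell markers had 7 of 10 tested and none called, each with a mean above that of the controls (median 0.10). Pax5, a B cell transcription factor, had the smallest p, at 0.70 (SE 0.25, limma adjusted p = 0.241). Cd22 was at 0.55 (SE 0.23), while Cd79a was at 0.01, Ms4a1 at 0.02 and Faim3 at 0.03. The groups overlapped in each of the 7 genes. All but Ighm were dim, with group means of 6.48 (Cd79a, controls) to 7.48 (Cd22, arrays labelled dn-cJun). The mean centred signal of the 7 was 0.02 to 0.25 on the arrays labelled dn-cJun and -0.20 to -0.03 on the controls. The summed signal of the 10 with a probe set was 1355 to 1591 on the arrays labelled dn-cJun and 1108 to 1438 on the controls. The median log2 fold change of the class II members had the other sign, at -0.23, or -0.03 without controls 14 and 15. A link between these orders was not tested. Among T cell and NK cell markers, 6 were tested and none called, with Cd8a at -0.72 (SE 0.42, limma adjusted p = 0.503). Of neutrophil markers 6 were tested, of sinusoidal endothelial markers 8 and of hepatocyte markers 9, and none was called by limma, with medians of 0.06, 0.10 and 0.06. The smallest p values of these lists were those of Mmp8 at 0.51 (SE 0.27), the Fc receptor gene Fcgr2b at 0.28 (SE 0.09) and Hnf4a, a hepatocyte transcription factor, at 0.21 (SE 0.08). The part of any cell type in the class II signal was not tested.

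An unadjusted p under 0.05 was found for 14.9% of all genes. Of the lists it was found for 4 of 13 endosomal processing genes, 3 of 6 costimulatory genes and 1 of 13 interferon gamma genes. Among cell markers the counts were 3 of 16 for Kupffer cells and macrophages, 2 of 7 for B cells, 2 of 9 for hepatocytes and 1 of 8 for sinusoidal endothelium. In the other lists (other class II genes, promoter factors, MHC class I presentation, and dendritic, T and NK cell and neutrophil markers) the count was 0.

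**Figure D4:**
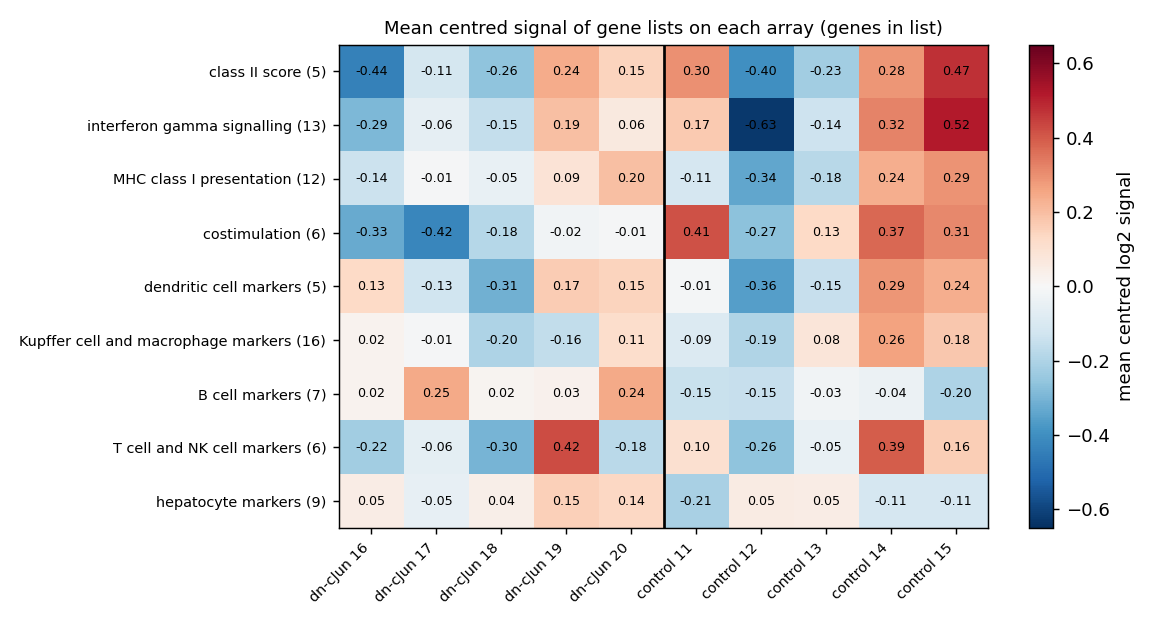
Mean centred log2 signal of each gene list on each array (colour and printed value, number of genes in brackets), with the arrays labelled dn-cJun left of the line and the controls right of it. The class II and interferon gamma rows are lowest on array 16 labelled dn-cJun or on control 12, and highest on control 15. The B cell row is above 0 on each array labelled dn-cJun and below 0 on each control. In each of its 7 genes the groups overlapped.

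RNA integrity can be read from probe sets at the ends of long-known transcripts, on the log2 scale. For Actb, the 3 prime minus 5 prime difference of the array's own control probe sets was 0.47 to 0.63 on the arrays labelled dn-cJun and 0.35 to 0.45 on the controls, so the groups did not overlap there. For Gapdh it was -0.54 to -0.35 on the arrays labelled dn-cJun and -0.47 to -0.39 on the controls. The part of RNA quality in the results was not tested.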

How the data were processed

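The authors deposited linear intensity values, 1 column per array and 1 row per probe set, made with software not given in the sources used here. Medians of the arrays were 85.3 to 127.5 as deposited and spanned 0.50 after log2(intensity + 16), so arrays were quantile normalized with limma 3.58.1 (R 4.3.3). Then 64 control probe sets were removed, and the 27022 with a mean at or above the 40th percentile (log2 6.06) were tested. The platform annotation gave 1 symbol to 34945 of 45037 probe sets, several to 932 and none to 9160. Adding 16 makes fold changes of dim genes too small.

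Each probe set was tested as arrays labelled dn-cJun minus control in limma (lmFit, eBayes with trend), two-sided, adjusted by Benjamini-Hochberg over all 27022 at a threshold of 0.05. Lists used the highest probe set of each gene and are given as counts and medians. Members, lists and alternatives were chosen with earlier results of these data known. The text names every member, of each list the genes past the threshold or else the smallest p, and the 5 most similar genes. Further list genes were picked as examples with their values known. Simulated data tested the fit. Each array holds 1 mouse per the labels, and the number of arrays limits the precision. Alternatives varied scaling, pseudocount, filter, unit, variance model and arrays. Promoters are RefSeq's (GRCm38.p6), and matplotlib 3.10.9 drew the figures.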

Additional observations from a re-analysis of the deposited data

Results flagged for a closer look

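Within groups of 5 arrays, 66 sets of values were examined for an array far from the other 4, and 2 held one. Chance alone flags about 1 in 20. The H2-Ab1 probe set 1425477_x_at read 9.17 on array 19 labelled dn-cJun, while the next of that group was at 8.26. Cd5l read 13.05 on control 12, while the next control was at 13.45.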

How the results depend on the processing

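No class II presentation probe set passed the threshold under any of the 24 alternatives run, where the lowest adjusted p was 0.0812 (values as deposited), and the count of members called was 0 with any array left out. The median log2 fold change of the members was -0.43 without normalization (median of all probe sets -0.20), and -0.34 to -0.12 with 1 array left out. H2-DMa turned to 0.048 as the mean of its probe sets. Without controls 14 and 15, H2-DMa was at 0.20, H2-Aa (1435290_x_at) at 0.034, Ctss at 0.045, H2-DMb2 at 0.18, Irf1 at 0.14 and Gm4951 at 0.074. Gm4951 was at 0.019 with equal trimmed means, and Hnf4a at -0.0030 as the mean of its probe sets. The causes were not tested. With 1 array left out, H2-DMa ranged from -0.20 to 0.075, Ctss from -0.19 to 0.011, H2-Aa (1443783_x_at) from -0.065 to 0.31, Irf1 from -0.22 to 0.012 and Gm4951 from -0.12 to 0.029.

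The count of probe sets past the threshold, 187 with all arrays (75 higher and 112 lower), was 651 with the values as deposited (29 higher and 622 lower), 109 with equal array medians (27 higher and 82 lower), 99 with 1 probe set per gene, 44 with the mean of probe sets per gene, 110 without _x_at and _s_at probe sets, 21 in eBayes without trend and 78 without controls 14 and 15. It was 47 without array 19 labelled dn-cJun and 246 without control 12, the range with 1 array left out. Of list genes, 3 passed (Cd83, Cd5l and Lyz2), and 0 did in eBayes without trend, 1 without controls 14 and 15, and 0 to 3 with 1 array left out. Cd5l passed in 12 and Lyz2 in 16 of 24 alternatives, and Cd83 in 14 of the 23 that tested it. No paired analysis was possible because the replicate numbers do not repeat between the groups.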
